A study of Homo sapiens with 11 samples.

Results

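RBCK1, RNF31, SHARPIN, OTULIN and CYLD, the genes that build linear ubiquitin chains and take them apart, were followed in HCT116 cells. They were picked by name from the deposited table of read counts per gene, and it was already known from these data that RBCK1 differed between the groups. They are 5 of the 61464 rows of that table. Enough counts for testing were present for 4 of them, among 17963 genes tested, and the fifth, RNF31, was listed at 0 throughout. Because the values themselves led to the choice, differences of the members are a description and carry no p-value, and a count of members past the threshold is given only beside that of all genes.

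HCT116, an established epithelial line from a human colorectal carcinoma, is labelled as carrying a ras mutation. Polyadenylated RNA was sequenced from 11 libraries, all labelled as batch 1. The 3 DMSO libraries are the solvent control, 4 libraries came from cells given GTEA1 and 4 from cells given GTEA7, each for 48 h, and no dose is given. GTEA1 and GTEA7 are code names. They stand for extracts of triterpenoids from the bracket fungus Ganoderma, and the series asks about stemness and migration of colorectal cancer cells. The labels do not say whether replicates were separate cultures, so the spread between them, and every p-value below, may reflect technical variation only. In bulk RNA, fewer cells with a transcript and less of it per cell cannot be told apart.

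Ubiquitin is usually joined to other proteins, and to itself, through the side chains of lysines. The linear ubiquitin chain assembly complex joins ubiquitins head to tail instead. It has a catalytic subunit, HOIP, encoded by RNF31, and the accessory subunits HOIL-1L, encoded by RBCK1, and SHARPIN. HOIL-1L is itself an RBR ubiquitin ligase and is also known for ubiquitylating sugars, and loss of RBCK1 in people is linked to storage of abnormal glycogen in muscle. OTULIN cleaves linear chains, and CYLD cleaves linear chains and one lysine-linked kind. Such chains form at the activated TNF receptor and at receptors of innate immunity, where they hold the kinases that switch on NF-kappaB, and they restrain cell death. Intestinal epithelium is one of the tissues where this balance between survival signalling and cell death is known to matter.

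Library totals were 13866350 to 17431515 counts with DMSO, 13742326 to 16433111 with GTEA1 and 14955685 to 19304211 with GTEA7. Levels are given as CPM, counts divided by the library total and scaled by TMM, a normalization that assumes that most genes do not differ. Of the 8 epithelial markers looked at, 7 had enough counts for testing. VIL1, an intestinal marker, had 28 counts in all, and the intestinal factor CDX2 had a mean of 11.6 CPM with DMSO. The summed level of the 8 markers was 2320 to 2480 CPM with DMSO, 2880 to 3020 with GTEA1 and 2330 to 2430 with GTEA7. From DMSO to GTEA1 the means of KRT19, EPCAM, CLDN4 and CDH1 went from 452, 234, 91 and 146 CPM to 1030, 359, 171 and 164. Those of KRT8, KRT18 and CDX2 went from 1160, 320 and 11.6 CPM to 972, 265 and 7.83, so the markers did not move together. The 5 markers of blood cells summed to at most 1.24 CPM in any library, and CD3E was at 0. The 4 endothelial markers summed to at most 4.27 CPM and the 3 neural markers to at most 4.07. Of the 5 fibroblast markers, COL1A1 held most of the sum, which was 53.7 to 55.1 CPM with DMSO, 38.2 to 45.9 with GTEA1 and 36.6 to 45.5 with GTEA7. The part of these shifts in the results below was not tested.

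The promoters of RBCK1 and OTULIN are shown first because these 2 members were higher with GTEA1, and that of CYLD beside them because it was not. Each is the 250 bases before the gene's start in RefSeq (GRCh38.p14, + strand), written 5′ to 3′, and 4 of the 5 members, all but SHARPIN, matched an entry there. They lie at chr20:408049-408298 for RBCK1, chr5:14664468-14664717 for OTULIN and chr16:50741836-50742085 for CYLD, whose start is 1 of 3 listed for that gene. Capitals mark matches, on either strand, to motifs that were searched by their letters.
RBCK1: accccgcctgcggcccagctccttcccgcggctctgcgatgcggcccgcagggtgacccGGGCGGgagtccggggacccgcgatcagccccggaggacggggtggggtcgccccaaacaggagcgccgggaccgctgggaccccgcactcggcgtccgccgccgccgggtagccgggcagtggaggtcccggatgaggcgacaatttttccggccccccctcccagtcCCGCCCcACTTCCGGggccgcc
OTULIN: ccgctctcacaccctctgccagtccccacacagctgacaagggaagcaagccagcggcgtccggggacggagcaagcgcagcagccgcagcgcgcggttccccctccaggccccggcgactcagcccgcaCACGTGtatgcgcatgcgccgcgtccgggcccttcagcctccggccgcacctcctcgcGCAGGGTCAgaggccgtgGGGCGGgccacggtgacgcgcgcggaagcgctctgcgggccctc
CYLD: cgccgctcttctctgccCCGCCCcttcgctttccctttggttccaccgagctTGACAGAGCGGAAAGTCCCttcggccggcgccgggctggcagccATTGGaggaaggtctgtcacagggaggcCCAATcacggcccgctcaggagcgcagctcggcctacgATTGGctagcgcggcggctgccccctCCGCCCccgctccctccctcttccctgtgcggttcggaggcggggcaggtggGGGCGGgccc

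In the RBCK1 promoter the capitals are 2 GC boxes (GGGCGG), which Sp1 family factors bind, and an ETS site (CCGGAAGT) 15 to 8 bases before the start. The ETS site is present in 3.42% of the 35116 human promoters of this length and the GC box in 42.6%. OTULIN had a GC box, an E-box (CACGTG, in 6.34% of promoters) and a core of the antioxidant response element (TGACNNNGC, in 10.9%). CYLD had 3 GC boxes, 3 CCAAT boxes (CCAAT, in 32.0%), the same antioxidant core and, directly after it, an NF-kappaB consensus site, which 0.179% of promoters held. The other motifs searched were the composite element of ATF4 and C/EBP factors (TGATGNAA), the cyclic AMP response element (TGACGTCA), the AP-1 site (TGANTCA) and the TATA box (TATAAA), and these letters were in none of the 3 windows. Bases G and C made up 77.2% of the RBCK1 window, 74.4% of the OTULIN window and 71.2% of the CYLD window, against a median of 58.0% over all promoters. A match is a run of letters and not a measured binding site.

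RBCK1 (ENSG00000125826), the accessory ligase subunit, was about 10 times higher with GTEA1 and at the DMSO level with GTEA7. It read 46.3, 46.4 and 45.3 CPM in the DMSO libraries. The GTEA1 libraries had 459, 477, 483 and 518 CPM. The GTEA7 libraries had 48.1, 44.6, 41.9 and 43.5 CPM. The lowest GTEA1 library thus stood far above every other library, while DMSO and GTEA7 overlapped. The counts behind these values were 656 to 859 per DMSO library, 5982 to 8064 with GTEA1 and 662 to 872 with GTEA7, so counting error is small beside the difference. Group means were 46 ± 0.61 CPM (SD, n = 3), 484 ± 25 (SD, n = 4) and 44.5 ± 2.6 (SD, n = 4). The fitted log2 fold change was 3.40 ± 0.045 (SE) for GTEA1 against DMSO, or 10.5-fold. For GTEA7 against DMSO it was -0.05 ± 0.05. Directly compared, GTEA7 lay below GTEA1 by 10.9-fold, a log2 fold change of -3.44 ± 0.04. Both comparisons with DMSO use the same 3 DMSO libraries.

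Ranked by fitted change with GTEA1, RBCK1 stood at place 73 from the top of the 17963 genes tested. In GTEA7 against GTEA1 it stood at place 52 from the bottom. By CPM, RBCK1 moved from among ranks 4469 to 4553.5 of the genes of a DMSO library to ranks 201 to 228 of a GTEA1 library. In the GTEA7 libraries it was at ranks 4343 to 4909.5. It was thus a gene of moderate count level under DMSO and GTEA7, and one of the higher counts under GTEA1. These ranks are not scaled by transcript length, so they do not rank abundance.

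**Figure D1:**
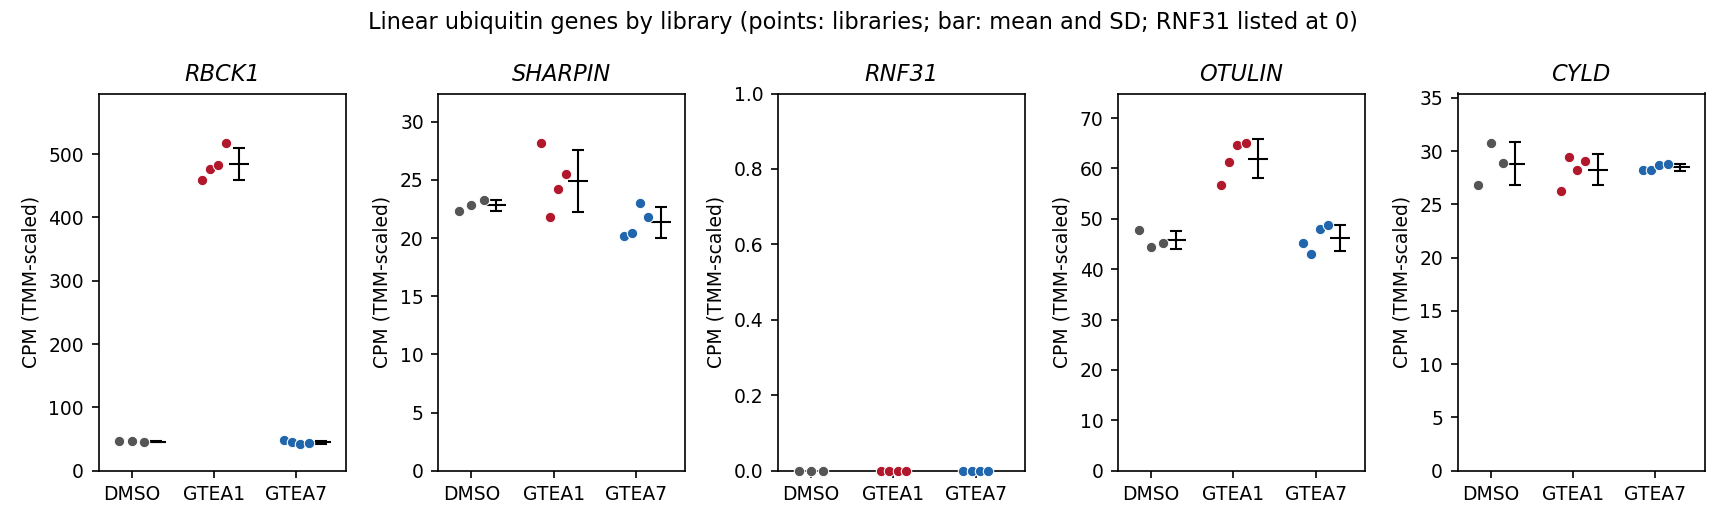
CPM of each member in each library, by group. Points are libraries and bars the group mean with its SD (n = 3 DMSO, 4 GTEA1, 4 GTEA7); each panel has its own axis from 0. RBCK1 is at 459 to 518 CPM in GTEA1 against 41.9 to 48.1 in all other libraries, OTULIN is higher in GTEA1 by a smaller margin, SHARPIN and CYLD overlap between groups, and RNF31 is listed at 0.

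SHARPIN (ENSG00000179526), the other accessory subunit, which helps to stabilise HOIP, did not follow RBCK1. The DMSO libraries had 22.3, 22.8 and 23.3 CPM. The GTEA1 libraries had 28.2, 21.8, 24.2 and 25.5 CPM. The GTEA7 libraries had 20.2, 20.4, 23 and 21.8 CPM. The groups overlapped in every comparison, with GTEA1 replicate 1 the highest and GTEA7 replicate 1 the lowest library. Means were 22.8 ± 0.5 (SD, n = 3), 24.9 ± 2.6 (SD, n = 4) and 21.3 ± 1.3 (SD, n = 4). The log2 fold change was 0.13 ± 0.07 (SE) with GTEA1, -0.10 ± 0.069 with GTEA7, and -0.22 ± 0.065 for GTEA7 against GTEA1. Scaled by library size alone, the first of these became -0.03. It was 0.07 without GTEA1 replicate 1 and 0.19 without GTEA1 replicate 2, where SHARPIN passed the threshold as higher. In the GENCODE v29 annotation 3.81% of the SHARPIN exonic bases lie opposite exons of MAF1 and WDR97, and reads there cannot be assigned without strand. MAF1, a repressor of RNA polymerase III, had a log2 fold change of 0.44 with GTEA1 (adjusted p = 5.7e-11, edgeR).

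RNF31 (ENSG00000092098), the catalytic subunit, was listed at 0 counts in each of the 3 DMSO, 4 GTEA1 and 4 GTEA7 libraries, so these data give no level for it. In GENCODE v29, 34.77% of its exonic bases are shared on the same strand with a read-through gene (AL136295.5), which was also listed at 0. IRF9, the next gene along and part of the same read-through transcript, shares 48.44% of its exonic bases and was at 0 too. So was IPO4, a nearby nuclear import gene. Of the other genes around RNF31, the proteasome activator genes PSME1 and PSME2 had 89.8 and 52.1 CPM with DMSO. Protein-coding genes that share no exonic base on the same strand were at 0 in all libraries in 12.1% of 16494 cases. Those that share up to 50% were at 0 in 7.13% of 2509 cases, those above 50% in 32.3% of 609, and those that share every base in 98.1% of 269. RNF31 belongs to the class of up to 50%. These classes leave out overlap on the opposite strand, and the strand setting of the counts is not given. A further 4.34% of the RNF31 exonic bases lie opposite exons of PSME2. What the 0 of RNF31 reflects was not tested.

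OTULIN (ENSG00000154124), the deubiquitinase that acts on linear chains, was higher with GTEA1 by a small and even margin. The DMSO libraries had 47.8, 44.3 and 45.2 CPM. The GTEA1 libraries had 56.8, 61.2, 64.6 and 65.1 CPM. The GTEA7 libraries had 45.1, 43.1, 47.9 and 48.7 CPM. Every GTEA1 library lay above every DMSO and GTEA7 library, and the last 2 groups overlapped. Means were 45.8 ± 1.8 (SD, n = 3), 61.9 ± 3.8 (SD, n = 4) and 46.2 ± 2.6 (SD, n = 4). The log2 fold change was 0.44 ± 0.052 (SE) with GTEA1, or 1.36-fold, and 0.01 ± 0.052 with GTEA7. The first was 0.28 when scaled by library size alone. For GTEA7 against GTEA1 it was -0.43 ± 0.047. OTULIN shares no exonic base with another gene in GENCODE v29.

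The gene next to OTULIN on either side fell. ANKH, a pyrophosphate transporter whose span overlaps that of OTULIN, fell with GTEA1 from 81.7 ± 1.4 to 59.1 ± 5 CPM, a log2 fold change of -0.47 ± 0.048 (adjusted p = 2.1e-12). OTULINL, the neighbour on the other side, is a related OTU family gene whose protein is held to lack the catalytic activity of OTULIN. It fell from 19.2 ± 1.4 to 9.19 ± 0.39 CPM, a log2 fold change of -1.06 ± 0.082 (adjusted p = 1.6e-16). With GTEA7 OTULINL had 19.6 ± 0.75 CPM (adjusted p = 0.84). OTULIN and OTULINL therefore had fitted changes of opposite sign with GTEA1.

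CYLD (ENSG00000083799), the deubiquitinase of broader range and a tumour suppressor, had overlapping levels in the 3 groups. The DMSO libraries had 26.8, 30.8 and 28.9 CPM. The GTEA1 libraries had 26.3, 29.5, 28.2 and 29.1 CPM. The GTEA7 libraries had 28.2, 28.2, 28.7 and 28.8 CPM. The DMSO libraries were the most spread. Means were 28.8 ± 2 (SD, n = 3), 28.3 ± 1.4 (SD, n = 4) and 28.5 ± 0.3 (SD, n = 4). The log2 fold change was -0.03 ± 0.06 (SE) with GTEA1, -0.02 ± 0.059 with GTEA7 and 0.01 ± 0.056 for GTEA7 against GTEA1. Scaled by library size alone, the fold change with GTEA1 became -0.19.

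**Figure D2:**
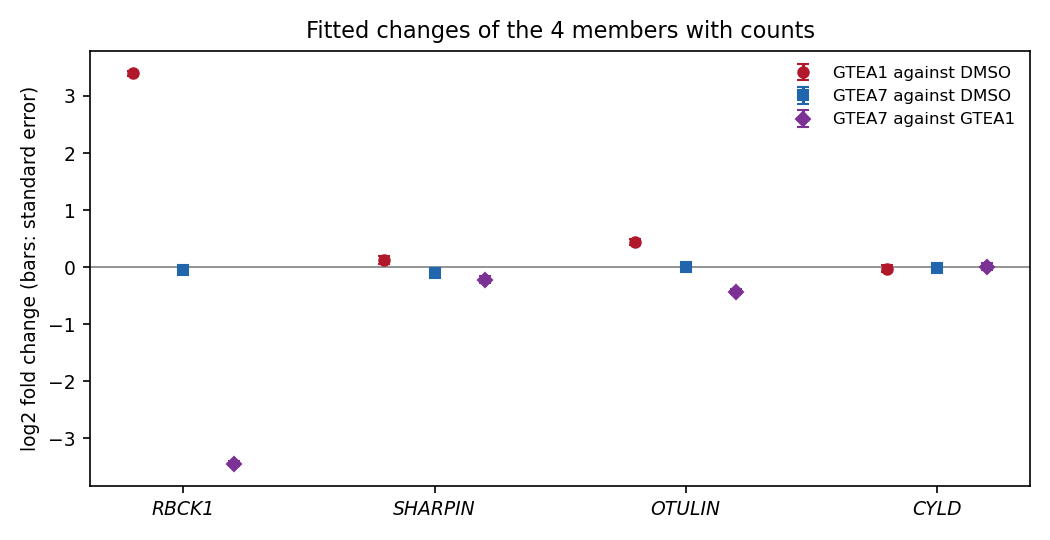
Fitted log2 fold change of each member with counts in the 3 comparisons, with its standard error. RBCK1 is at 3.40 for GTEA1 against DMSO and -3.44 for GTEA7 against GTEA1, OTULIN is at 0.44 and -0.43, and all 4 members lie between -0.10 and 0.01 for GTEA7 against DMSO.

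A gene counted as called when its adjusted p was under 0.05. With GTEA1 against DMSO, 2 of the 4 members tested were called, RBCK1 and OTULIN, both higher, where 71.8% of all genes tested were called and 35.6% were called higher. The groups did not overlap for the same 2 members, and for 68.7% of all genes, 33.9% with GTEA1 the higher. With GTEA7 against DMSO none of the 4 was called, against 22.5% of all genes, and the groups overlapped for all 4, while they did not for 30.5% of all genes. For GTEA7 against GTEA1, RBCK1, OTULIN and SHARPIN were called lower, against 72.7% of all genes called and 36.4% called lower. The call of SHARPIN there was lost with library size alone. The groups did not overlap for RBCK1 and OTULIN, and for 65.3% of all genes, 32.5% with GTEA7 the lower. Since the members were chosen on these comparisons, the counts are given only beside this background. A change of at least 2-fold that was also called, as RBCK1 had with GTEA1, was found for 21.0% of all genes with GTEA1, 0.579% with GTEA7 and 19.8% between the extracts.

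Between genes, levels can be compared only per length, here as CPM per kb of the longest transcript in GENCODE v29. On that scale RBCK1 stood at 16.6, 175 and 16.1 in DMSO, GTEA1 and GTEA7, and SHARPIN at 12.9, 14.1 and 12.1. OTULIN stood at 5.87, 7.94 and 5.92, and CYLD at 3.39, 3.33 and 3.35. The 2 accessory subunits were thus of similar level under DMSO and far apart under GTEA1. The ratio of RBCK1 to SHARPIN was 1.32, 1.3 and 1.23 in the DMSO libraries. It was 10.4, 13.9, 12.7 and 12.9 with GTEA1. It was 1.52, 1.39, 1.16 and 1.27 with GTEA7. Only the GTEA1 libraries stood apart, with a mean of 12.5 ± 1.5 (SD, n = 4) against 1.28 ± 0.044 (SD, n = 3) with DMSO. If the median transcript length is used in place of the longest, these means become 10.9 and 1.12.

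The ratio of the 2 deubiquitinases, OTULIN to CYLD, was 1.94, 1.57 and 1.7 with DMSO. With GTEA1 it was 2.36, 2.26, 2.5 and 2.44, and with GTEA7 1.74, 1.67, 1.82 and 1.84. All GTEA1 libraries lay above the rest, while DMSO and GTEA7 overlapped. The mean was 2.39 ± 0.11 (SD, n = 4) with GTEA1 and 1.74 ± 0.19 (SD, n = 3) with DMSO. With median lengths the mean was 9.23 with GTEA1, 6.72 with DMSO and 6.83 with GTEA7. RBCK1 to OTULIN was 2.83 with DMSO, 22 with GTEA1 and 2.72 with GTEA7, but 0.564, 4.39 and 0.543 with median lengths. Which of RBCK1 and OTULIN has the higher level under DMSO therefore depends on the length used.

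**Figure D3:**
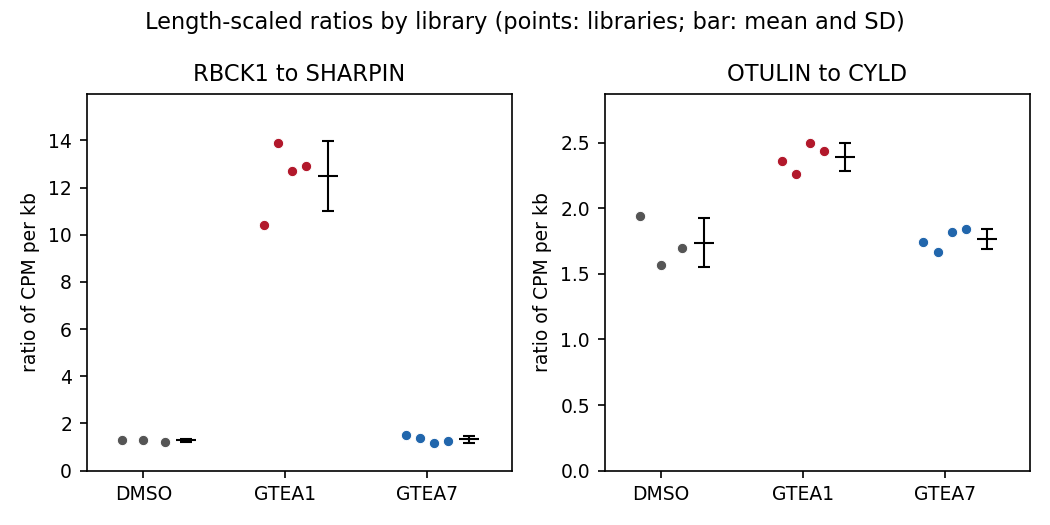
Ratio of CPM per kb (longest transcript) of RBCK1 to SHARPIN and of OTULIN to CYLD in each library, both axes from 0. Points are libraries and bars the group mean with its SD. The RBCK1 to SHARPIN ratio is 10.4 to 13.9 in GTEA1 and 1.16 to 1.52 elsewhere.

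RBCK1 lies on chromosome 20 among genes that also rose with GTEA1. TRIB3, a pseudokinase induced in the integrated stress response, lies next to it in the order of RefSeq genes. It read 13.7 to 14.3 CPM with DMSO, 187 to 193 with GTEA1 and 16.8 to 18.8 with GTEA7. Its log2 fold change was 3.75 ± 0.051 with GTEA1 (adjusted p = 4.8e-48, 13.5-fold) and 0.34 with GTEA7 (adjusted p = 9.8e-05), so unlike RBCK1 it was also above DMSO in every GTEA7 library. On the other side, TBC1D20, a Rab GTPase activating protein, rose from 63.7 ± 2.6 to 156 ± 5.8 CPM (fitted log2 change 1.29 ± 0.042, adjusted p = 1.6e-31). CSNK2A1, a catalytic subunit of casein kinase II, rose from 331 ± 5.5 to 821 ± 48 CPM (1.31 ± 0.038, adjusted p = 4.9e-34). TBC1D20 was not called with GTEA7 (adjusted p = 0.75). CSNK2A1 just missed the threshold there (adjusted p = 0.059), and passed it without GTEA1 replicate 1, 3 or 4 or without GTEA7 replicate 4 (adjusted p of 0.014 to 0.044). It also passed with DESeq2 size factors (adjusted p = 0.037), the DESeq2 Wald test (0.049), no low-count filter (0.028) and only the compared groups in the fit (0.012). NRSN2, a neuronal membrane protein gene, was near 1 CPM in DMSO and GTEA1 and was not called (adjusted p = 0.85). The mesodermal factor TCF15 had 1 count in all.

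Neighbours of all 5 members, 3 on each side, gave 30 genes, of which 21 were tested. With GTEA1 against DMSO, 5 rose and 10 fell, where 35.6% of all genes tested rose and 36.2% fell. With GTEA7 against DMSO, 2 rose and 2 fell, where 12.0% of all genes rose and 10.4% fell. Of the 5 that rose with GTEA1, 3 were the neighbours of RBCK1 just described.

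**Figure D4:**
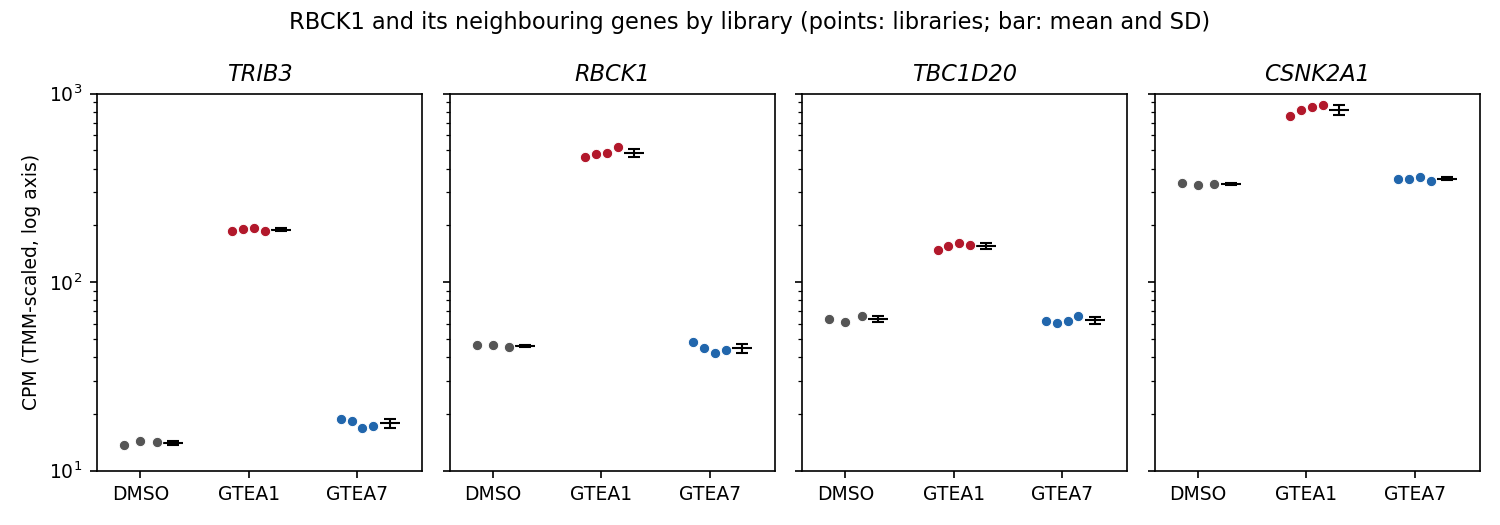
CPM of RBCK1 and of its neighbours TRIB3, TBC1D20 and CSNK2A1 in each library, on a shared log axis. Points are libraries and bars the group mean with its SD. All 4 genes are higher in every GTEA1 library than in any other; TRIB3 and RBCK1 by over 10-fold, TBC1D20 and CSNK2A1 by about 2.5-fold against the DMSO mean.

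The genes with a pattern most like that of RBCK1 were found by the distance between log2 CPM profiles over the 11 libraries, each centred on its own mean, among 15329 genes. In order they were PYY, PLAU, TRIB3, DMGDH, ATF3, ARG2, ZFP36 and FOSL1, at distances of 0.148 to 0.208 and with r of 0.994 to 0.999. The libraries fall into the same treatment groups for all genes, and 485 genes reached an r of 0.99, so such likeness is shared widely. PLAU, the urokinase gene, had 17.8, 155 and 17.7 CPM in DMSO, GTEA1 and GTEA7. ATF3, a stress-induced transcription factor, had 7.93, 96.5 and 10.1 CPM. ZFP36, which destabilises AU-rich mRNAs, had 22.1, 202 and 23.6 CPM. FOSL1, an AP-1 subunit, had 18.5, 194 and 23.6 CPM. PYY, a gut hormone gene and the closest by distance, had 0.339, 4 and 0.301 CPM, close to where counts become sparse. It reached the mean of 1 CPM needed to enter the search only through its GTEA1 libraries, so its place carries little weight.

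The genes around the members were read in 9 lists with 116 genes, of which 110 were tested. With GTEA1 against DMSO, 62 rose and 22 fell, so 76.4% were called beside 71.8% of all genes. Their median log2 fold change was 0.19, against -0.008 over all genes. The counts and medians of this paragraph include CXCL1, CXCL2 and CXCL3, which may have entered testing only through their GTEA1 libraries. With library size as the only scaling, which shifts the median of all genes to -0.167, the counts became 47 and 37 and the median 0.04. With GTEA7 against DMSO, 19 rose and 10 fell, so 26.4% were called beside 22.5% of all genes, with a median of 0.01 against -0.009. That split became 10 and 15 under library size alone. For GTEA7 against GTEA1, 25 were higher and 62 lower with GTEA7, with a median of -0.21, so 79.1% were called beside 72.7% of all genes. Under library size alone these became 30 and 53 with a median of -0.10. Of all genes tested, 35.6% were called higher and 36.2% lower with GTEA1, and 12.0% and 10.4% with GTEA7. The share called in a single list ran from 66.7% to 100% with GTEA1 and from 13.3% to 40% with GTEA7. The counts per list below are given beside these shares of all genes. Directions of single genes below are those that held under both scalings unless stated otherwise.

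Other regulators and readers of linear chains included 15 tested genes, of which 8 rose and 2 fell with GTEA1, with a median log2 fold change of 0.14. The median was -0.02, and the counts 4 and 5, with library size alone. OPTN, an autophagy receptor that binds linear chains, rose from 39 ± 2.7 to 65.5 ± 4.4 CPM (0.75 ± 0.053, adjusted p = 5.2e-18). UBE2L3, the conjugating enzyme that serves RBR ligases such as HOIP, fell from 122 ± 1.1 to 82.2 ± 2.2 CPM (-0.57 ± 0.041, adjusted p = 1.6e-17). The second gene that fell was OTULINL, described beside OTULIN. With GTEA7, 3 rose and 1 fell, but none rose and 2 fell under library size alone. The gene that fell under both was TNIP1, an adaptor that binds linear chains and works with A20, at 46.6 ± 1.4 CPM with DMSO and 39.3 ± 1.9 with GTEA7 (-0.25 ± 0.054, adjusted p = 0.00049). TNIP3 had 9 counts in all and was not tested.

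Of the 6 tested genes for ubiquitin itself and its activating enzymes, 4 rose and 2 fell with GTEA1. UBB, which encodes a chain of ubiquitin repeats, fell from 126 ± 34 to 72.5 ± 5.9 CPM (-0.80 ± 0.17, adjusted p = 0.0024). RPS27A, which encodes ubiquitin fused to a ribosomal protein, rose by 0.37 ± 0.039 (adjusted p = 1.2e-11). Near-identical copies of both genes make their counts uncertain. The activating enzymes parted: UBA6 rose from 141 ± 4.5 to 220 ± 11 CPM (0.64 ± 0.038, adjusted p = 1e-20), and UBA1 fell from 395 ± 13 to 327 ± 6 CPM (-0.27 ± 0.034, adjusted p = 7.3e-10). UBA1 was also the gene of this list that fell with GTEA7 (-0.13 ± 0.034, adjusted p = 0.0033), and none rose. RPS27A, at 0.10 with GTEA7 (adjusted p = 0.051), was past the threshold as higher in 10 alternatives, among them the replicate block (adjusted p = 0.037), DESeq2 size factors (adjusted p = 0.029) and the fit without GTEA7 replicate 1 (adjusted p = 0.0048) or without any 1 GTEA1 library (adjusted p of 0.032 to 0.039).

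RBCK1 and RNF31 belong to the RBR family of ubiquitin ligases. Of the 12 other members tested, 8 rose and 2 fell with GTEA1, with a median of 0.30 that was 0.14 under library size alone. The fitted change of RBCK1, 3.40, lay above all of theirs, but RBCK1 was picked with its difference known. RNF19B rose from 18.5 ± 0.19 to 51.1 ± 2.5 CPM (1.47 ± 0.059, adjusted p = 1.2e-27). RNF216 rose by 0.66 ± 0.043 (adjusted p = 4.4e-19), RNF14, which acts on stalled ribosomes, by 0.55 ± 0.052 (adjusted p = 2.1e-13) and ARIH1, a partner of cullin ligases, by 0.38 ± 0.035 (adjusted p = 5.9e-14). The 2 that fell are a related pair, RNF144A (-0.29 ± 0.052, adjusted p = 2.3e-06) and RNF144B, which fell by 0.63 ± 0.14 (adjusted p = 0.00011). With GTEA7, 2 rose and 1 fell, and under library size alone none rose and 3 fell. The gene that fell under both was RNF144A (-0.18 ± 0.05, adjusted p = 0.006), and RNF19B, at 18.6 ± 0.75 CPM, was not called (adjusted p = 0.93).

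OTULIN belongs to the OTU deubiquitinases. Among 14 others tested, 9 rose and 2 fell with GTEA1, with a median of 0.35, or 0.19 under library size alone, so the 0.44 of OTULIN lay within the range of its family. OTUD1 rose from 7.81 ± 1.4 to 19.4 ± 2.2 CPM (1.32 ± 0.11, adjusted p = 3.2e-13). OTUD7B, also called Cezanne, rose by 0.43 ± 0.046 (adjusted p = 1.2e-11) and OTUD3 by 0.41 ± 0.043 (adjusted p = 4.2e-12). Beside OTULINL, the gene that fell was OTUB1 (-0.18 ± 0.052, adjusted p = 0.0016). With GTEA7, 2 rose and 1 fell. The 2 were OTUD4 (0.16 ± 0.038, adjusted p = 0.001) and OTUD6B (0.22 ± 0.053, adjusted p = 0.0016). OTUD6A had 1 count in all.

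At the TNF receptor, where linear chains are made, 9 of 18 tested genes rose with GTEA1 and 5 fell, with a median of 0.14. With that other scaling 7 rose and 8 fell. The receptor itself, TNFRSF1A, rose from 47.9 ± 1.2 to 189 ± 5.9 CPM (1.98 ± 0.042, adjusted p = 5.8e-40). BIRC3, a ubiquitin ligase that recruits the linear chain complex, rose from 8.99 ± 0.67 to 24 ± 1.4 CPM (1.41 ± 0.085, adjusted p = 1.5e-20). Among the 5 that fell, the kinase RIPK1 went from 54.5 ± 1.2 to 38.3 ± 1.6 CPM (-0.51 ± 0.05, adjusted p = 5.2e-13) and the adaptor TRAF2 from 13.5 ± 1.5 to 8.73 ± 1.4 CPM (-0.62 ± 0.1, adjusted p = 5.9e-07). TANK, a scaffold of the IKK-related kinases, fell by 0.98 ± 0.042 (adjusted p = 1.2e-26) and the kinase IKBKE fell by 1.04 ± 0.17 (adjusted p = 2.5e-07). TRADD, the receptor's first adaptor, was at -0.28 ± 0.12 (adjusted p = 0.037), and its call was lost without DMSO replicate 2 (-0.10, adjusted p = 0.52) and without GTEA1 replicate 2 (adjusted p = 0.075) or 4 (adjusted p = 0.13). The replicate block (adjusted p = 0.075), no low-count filter (0.072), limma-voom (0.05) and the DESeq2 Wald test (0.098) lost it too. With GTEA7, 2 rose and 2 fell. TNFRSF1A rose to 58.4 ± 0.39 CPM (0.29 ± 0.044, adjusted p = 2e-06) and the kinase CHUK by 0.19 ± 0.038 (adjusted p = 0.00019), while TANK fell by 0.21 ± 0.039 (adjusted p = 4.1e-05). TRAF2 fell by 0.33 ± 0.096 (adjusted p = 0.0078), a call lost without DMSO replicate 3 (adjusted p = 0.087).

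In the cell death arm of that receptor, 5 of 7 tested genes rose with GTEA1 and none fell, or 3 and 2 under library size alone. The 71.4% called is near the 71.8% of all genes. XIAP, a caspase inhibitor, rose from 71.4 ± 3.5 to 132 ± 6 CPM (0.88 ± 0.042, adjusted p = 1.5e-24). CASP10, an initiator caspase, rose by 0.89 ± 0.12 (adjusted p = 5e-09), and CFLAR, which restrains CASP8, by 0.45 ± 0.054 (adjusted p = 3.5e-10). CASP8 was at 0.13 and was not called under library size alone or without GTEA1 replicate 1 (adjusted p = 0.054). RIPK3, the kinase of necroptosis, was listed at 0 in every library. With GTEA7, 2 rose and none fell, so 28.6% were called beside 22.5% of all genes, and under library size alone 1 rose. XIAP rose by 0.20 ± 0.043 (adjusted p = 0.00048). CASP8 rose by 0.18 ± 0.049 (adjusted p = 0.0046), a call lost under library size alone (adjusted p = 0.051).

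Among adaptors of Toll-like, IL-1 and NOD receptors, which also recruit linear chains, 7 of 16 tested genes rose with GTEA1 and 5 fell, with a median of 0.09. Under library size alone 5 rose and 7 fell. RIPK2, the kinase of NOD receptors, rose from 32.7 ± 2 to 65.2 ± 2 CPM (1.00 ± 0.052, adjusted p = 3.6e-23) and IRAK1 by 0.71 ± 0.045 (adjusted p = 9.3e-20). MYD88, the adaptor of most Toll-like receptors, fell from 24 ± 1.1 to 10.8 ± 1.1 CPM (-1.15 ± 0.079, adjusted p = 2.1e-18). UBE2N, a conjugating enzyme for lysine-linked signalling chains, fell by 0.67 ± 0.042 (adjusted p = 8.2e-20). With GTEA7, 4 rose and 2 fell. Among them RIPK2 rose by 0.22 ± 0.054 (adjusted p = 0.0017) and IRAK1 by 0.22 ± 0.045 (adjusted p = 3e-04).

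Of the NF-kappaB subunits and targets, 10 of 15 tested rose with GTEA1 and 1 fell, with a median of 0.49, or 0.33 with 10 and 3 under library size alone. The 73.3% called stands beside 71.8% of all genes. Among those that rose, CXCL1, CXCL2 and CXCL3 had 0.534, 0.465 and 0.511 CPM with DMSO and 0.376, 0.384 and 0.521 with GTEA7. With GTEA1 they had 2.7, 1.55 and 2.2 CPM, so they may have entered testing only through that group, and their rise is weak evidence. The count of 10, the 73.3% called and both medians include these genes. That count, share and medians are therefore weak evidence of a rise of the list. NFKB2 rose from 76.2 ± 1 to 163 ± 4.2 CPM (2.14-fold, adjusted p = 3.6e-28) and its partner RELB from 4.52 ± 0.88 to 16.7 ± 1.4 CPM (1.89 ± 0.12, adjusted p = 9e-20). The chemokine CXCL8 rose from 0.84 ± 0.26 to 8.05 ± 0.83 CPM (3.29 ± 0.19, adjusted p = 1.4e-21), and BCL3, a nuclear cofactor, rose by 0.78 ± 0.091 (adjusted p = 1.3e-10). NFKB1 was the gene that fell, from 31.8 ± 1.2 to 23.6 ± 1.6 CPM (-0.43 ± 0.061, adjusted p = 2.1e-08). NFKBIA, the inhibitor that NF-kappaB itself induces, was not called with GTEA1 (-0.13 ± 0.074, adjusted p = 0.11; called lower under library size alone and, at -0.18 with an adjusted p of 0.037, without GTEA1 replicate 3). It fell with GTEA7 from 20.8 ± 1.1 to 15.6 ± 1.2 CPM (-0.42 ± 0.075, adjusted p = 2e-05). In that comparison 1 gene of the list rose and 1 fell, so 13.3% were called beside 22.5% of all genes. The gene that rose was ICAM1 (0.41 ± 0.15, adjusted p = 0.037). Its call was lost under library size alone (adjusted p = 0.07) and without any 1 DMSO library (adjusted p of 0.062 to 0.12). CXCL8 was at 0.68 ± 0.26 (adjusted p = 0.055), and passed without DMSO replicate 3 (adjusted p = 0.034). CCL20 had 10 counts in all.

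Glycogen metabolism was read because of the link of RBCK1 to glycogen storage. Of 10 tested genes, 4 rose and 4 fell with GTEA1, with a median of -0.02, and under library size alone 3 rose and 5 fell. PYGB, the brain form of glycogen phosphorylase, rose from 111 ± 3.4 to 554 ± 15 CPM (2.32 ± 0.038, adjusted p = 1.2e-44). GYS1, glycogen synthase, fell from 67.1 ± 2.1 to 28.6 ± 0.9 CPM (-1.23 ± 0.051, adjusted p = 2.8e-27). GBE1, the branching enzyme, fell by 0.23 ± 0.053 (adjusted p = 0.00017). EPM2A, the phosphatase laforin, rose by 0.65 ± 0.1 (adjusted p = 1.2e-07). With GTEA7, GYS1 fell by 0.25 ± 0.045 (adjusted p = 4.1e-05), while GBE1 rose by 0.21 ± 0.05 (adjusted p = 0.0011) and PYGL, the liver phosphorylase, by 0.20 ± 0.033 (adjusted p = 9.8e-06). NHLRC1 and PPP1R3C had 1 and 4 counts in all.

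**Figure D5:**
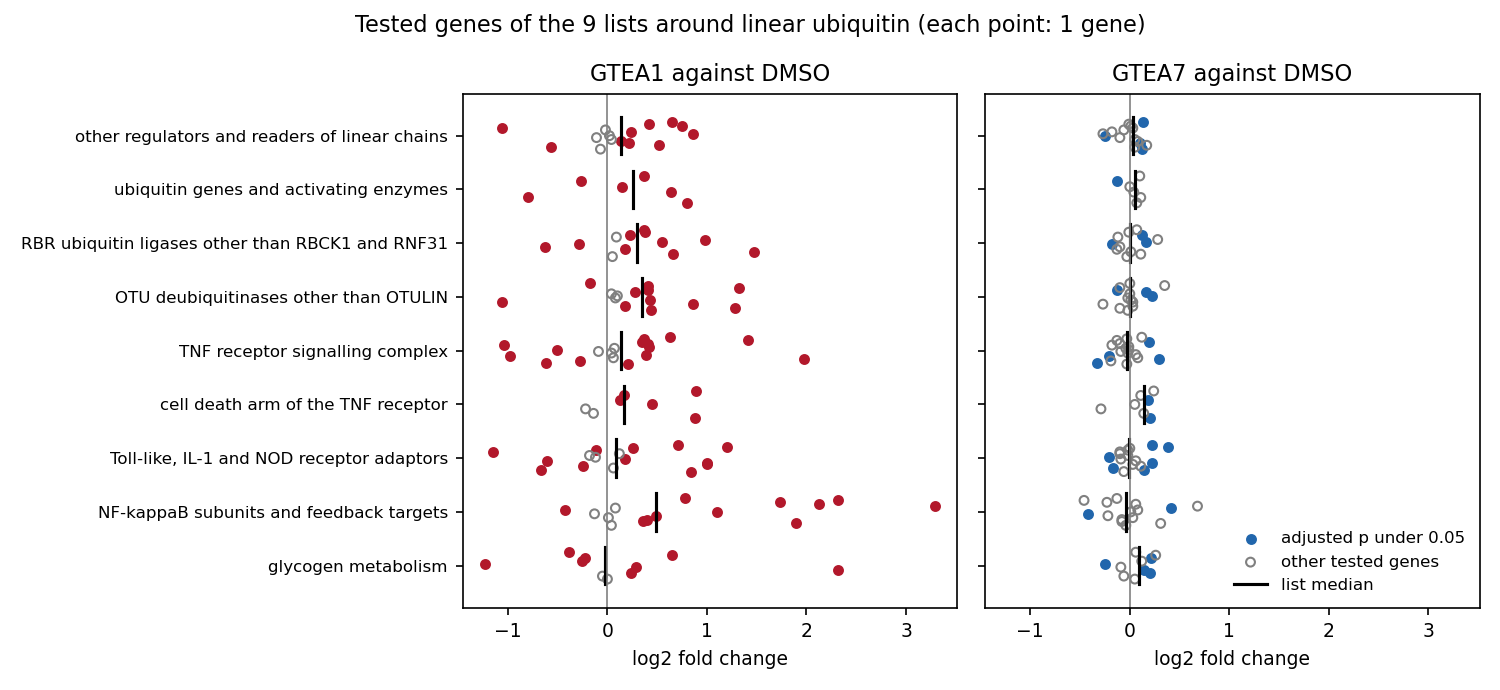
Log2 fold change of every tested gene of the 9 lists, for GTEA1 (left) and GTEA7 (right) against DMSO, which share the DMSO libraries. Filled points had an adjusted p under 0.05, open points did not, and black bars are list medians. With GTEA1 the values run from -1.23 for GYS1 to 3.29 for CXCL8, and with GTEA7 they lie nearer 0.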

How the data were processed

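Read counts per gene were deposited by the authors for 11 libraries of polyadenylated RNA, and all were used. Tools listed by the submitters' processing notes, with no roles, are HTSeq 0.5.4, DESeq 1.10.1, SAMtools 0.1.18, STAR, GATK and Picard. Which build, gene models, strand and counting settings were used is not given in the sources used here. Groups follow the labels. Symbols were matched for 60370 of 60624 Ensembl rows. Lengths and exon overlaps came from GENCODE v29, promoters and gene order from RefSeq.

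Genes were filtered with filterByExpr, scaled by TMM and fitted over all 11 libraries with the quasi-likelihood test of edgeR 4.0.16 (R 4.3.3), with Benjamini-Hochberg adjustment over 17963 genes. The SE of a log2 fold change was derived from the test, as its absolute value divided by the square root of the F statistic. It is therefore approximate. Likeness to RBCK1 used log2 CPM with a prior count of 2. The members and lists were chosen with earlier results of these data known. Beside the members, the genes named are the neighbours of RBCK1 and any overlapping another member, and, from a set per list, up to 4 with the smallest adjusted p with GTEA1, up to 3 in each other comparison, those against a list's majority where 5 or fewer, and untested ones. Which of these to describe was chosen after their values were seen, and some are not reported here.

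Data were simulated with 50 well-counted genes changed per fold size and all others equal between groups. Changes of 1.25-fold were found for 70% of changed genes for GTEA1 and 62% for GTEA7. Those of 1.5-fold were found for 74% and 76%, and 2-fold changes for 98% in both. The setting differs from these data, where 71.8% of genes were called with GTEA1, and genes with few counts were not covered. Libraries of a group differed by more than sampling noise (chi-square per degree of freedom 1.38 to 3.91), so none was counted as a duplicate. Alternatives were DESeq2 size factors and its Wald test (DESeq2 1.42.0), library size alone, other low-count filters, a replicate block, only the compared groups, limma-voom (limma 3.58.1) and leaving out each library.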

Additional observations from a re-analysis of the deposited data

How the results depend on the processing

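RBCK1 kept its direction for GTEA1 against DMSO and for GTEA7 against GTEA1 under every alternative tried. With library size as the only scaling its log2 fold changes were 3.24 and -3.33. Leaving out each library in turn gave 3.37 to 3.42 for GTEA1 against DMSO, -0.09 to -0.01 for GTEA7 against DMSO and -3.48 to -3.41 for GTEA7 against GTEA1. The RBCK1 to SHARPIN ratio of levels with DMSO was 1.12 with median transcript lengths. With library size alone, OTULIN stood at 0.28 with GTEA1 and -0.32 for GTEA7 against GTEA1, SHARPIN at -0.03 and -0.12, and CYLD at -0.19, then called lower, and 0.12.

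Library size alone moved the split of genes called higher and lower from 6390 and 6505 to 4828 and 8179 for GTEA1 against DMSO, and from 2159 and 1877 to 1255 and 2954 for GTEA7 against DMSO. Under it TNIP1 and CASP8 changed sign with GTEA1, to -0.14 and -0.03, and PYGL to 0.07 for GTEA7 against GTEA1. The replicate numbers did not pair the libraries, since deviations of same-numbered libraries correlated at -0.06 to 0.03. With the replicate block 12725 genes were called for GTEA1 and 4087 for GTEA7 against DMSO, in place of 12895 and 4036, and 13016 in place of 13056 for GTEA7 against GTEA1. No library stood apart in the 16 groups of 4 checked by Dixon's test. These were the GTEA1 and GTEA7 groups of the members with counts, of TRIB3, TBC1D20 and CSNK2A1, and of the RBCK1 to SHARPIN ratio. The other ratios and the DMSO groups were not checked. Counting error limits genes with few counts, such as PYY and CXCL8, most.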
